A study of Mus musculus with 12 samples.

Results

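Catalase and antioxidant defence genes were followed in hypothalamus RNA of mice with mutant Wfs1. The set was named gene by gene and not by any measured value: Cat (catalase), the superoxide dismutases Sod1 and Sod2, the glutathione peroxidases Gpx1 and Gpx4, the peroxiredoxins Prdx1, Prdx3 and Prdx6, the thioredoxin reductase Txnrd1, and Nfe2l2, which encodes the transcription factor NRF2. All 10 genes were found among the 24020 genes of the count table. Gpx4 held 0 to 3 counts per library and did not pass the filter on low counts, which left 9 of the 10 among the 10737 genes tested.

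Cells remove reactive oxygen in steps. Superoxide dismutases turn superoxide into hydrogen peroxide, SOD1 mainly in the cytosol and SOD2 in the mitochondrial matrix. Hydrogen peroxide is then split to water by catalase, which sits mostly in peroxisomes, by glutathione peroxidases, and by peroxiredoxins, which are recharged through thioredoxin and its reductase. NRF2 is held low by the adaptor KEAP1 and, when released, turns on many of these enzymes through antioxidant response elements in their promoters. Wfs1 encodes wolframin, a protein of the endoplasmic reticulum membrane whose loss causes Wolfram syndrome, and the brain, with its high oxygen use, is known for rather low catalase.

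Hypothalami of the line Wfs1tm1Koks were compared in 3 groups of 4 individuals: wild-type mice (0 mutant copies, replicates 1, 2, 3 and 5), heterozygous mice (1 mutant copy, replicates 1 to 4) and homozygous mutant mice (2 mutant copies, replicates 1, 2, 4 and 5). The allele name marks a targeted mutation, and the labels name no promoter or Cre that would limit it to a cell type. The count column of homozygous replicate 5 was placed by its genotype: no homozygous label has that number, no count column was matched to the homozygous label numbered 3, and whether they are the same animal is not known. Age and sex are not given in the labels used here, and p-values measure the spread between these 12 libraries.

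Each library held 979394 to 2330872 counts, and levels are given as CPM, counts scaled to a common library size with the trimmed mean of M-values (TMM) method. Wfs1 was at 114 to 167 CPM in wild-type, 81.8 to 103 in heterozygous and 14.8 to 20.1 in homozygous libraries, and all 14 hypothalamic neuron markers were detected. Homozygous replicates 4 and 5 stood apart from the others. Their composition score, the slope over genes of a library's log2 CPM, relative to the mean library, on transcript GC content, per 10 points of GC, was −0.48 and −0.52, against −0.03 to 0.33 in the other 10 libraries. Ribosomal RNA counted at Rn45s was 95.6 and 85.8 CPM in these libraries, 316 and 352 CPM in the other homozygous libraries, 352 to 788 CPM in the heterozygous and 958 to 1983 CPM in the wild-type libraries. Results for the homozygous group are therefore also given without these libraries and with the score as a covariate. Whether the differences come from the genotype or from the way these libraries were made cannot be told apart.

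The promoters of Cat and Nfe2l2 are shown because these genes rose together, and because the antioxidant response element is the sequence through which NRF2 acts. RefSeq promoter windows of 300 bases (GRCm38.p6) were found for 9 of the 10 genes, Prdx6 being the one not matched. The stretches upstream of the transcribed part follow, 5′ to 3′ on the minus strand, Cat from chr2:103485161-103485403 and Nfe2l2 from chr2:75704664-75704913. Capitals mark the antioxidant response element core TGACNNNGC and the CCAAT box, each on either strand.
Cat: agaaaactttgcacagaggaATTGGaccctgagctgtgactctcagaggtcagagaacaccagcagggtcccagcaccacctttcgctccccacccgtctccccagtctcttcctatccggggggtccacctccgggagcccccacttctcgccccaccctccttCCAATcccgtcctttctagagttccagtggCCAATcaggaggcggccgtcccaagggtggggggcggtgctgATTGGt
Nfe2l2: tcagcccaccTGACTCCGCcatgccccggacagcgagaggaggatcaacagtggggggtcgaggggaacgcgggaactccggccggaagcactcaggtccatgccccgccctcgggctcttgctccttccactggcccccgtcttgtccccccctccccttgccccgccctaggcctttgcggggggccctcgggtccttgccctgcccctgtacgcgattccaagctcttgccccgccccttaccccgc
The Nfe2l2 window held 1 element core, TGACTCCGC, at −240 from the start site, and no CCAAT box. The Cat window held no element core and 4 CCAAT boxes, at −230, −85, −55 and −13. The core was also present in the windows of Sod1 (GCGTGGTCA at −56), Prdx1 (GCTGAGTCA at −133) and 1 of 3 Txnrd1 windows (GCTTTGTCA at −92), and these genes were not called in any comparison below. The windows of Sod2, Gpx1, Prdx3 and Gpx4 held no core. The core occurs in 12.4% and the CCAAT box in 37.4% of all 32851 promoter windows, and a match is only a run of letters. The FOXO core GTAAACA, present in 3.65% of all windows, was in none of these.

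The first comparison asks how the genes differ when both Wfs1 copies are mutant. In homozygous against wild-type mice, Cat and Nfe2l2 were higher, Sod2 and Gpx1 were lower, and Sod1, Prdx1, Prdx3, Prdx6 and Txnrd1 were not called. A gene was called at an adjusted p under 0.05 (edgeR quasi-likelihood test, Benjamini-Hochberg over all genes tested). The 4 called genes of 9 tested (44.4%) stand beside 25.4% of all genes, of which 13.7% were higher and 11.6% lower. The median log2 fold change of the 9 genes was −0.36, against −0.03 for all genes tested. Groups that do not overlap are described gene by gene, and the share of all genes tested with such groups was not counted. In bulk tissue, fewer cells of a type and less RNA per cell cannot be told apart.

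**Figure D1:**
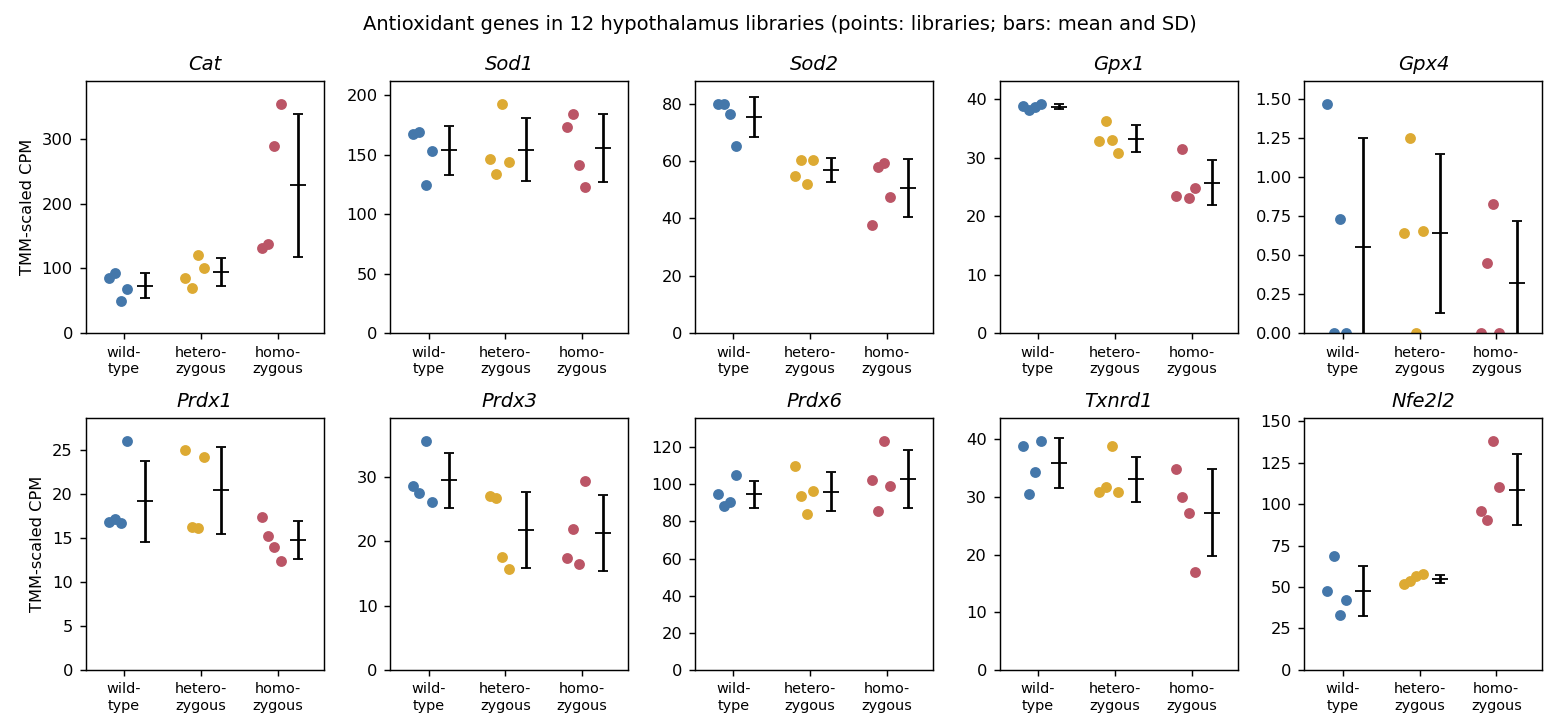
TMM-scaled CPM (y axis, from 0) of the 10 genes in wild-type, heterozygous and homozygous libraries, with each point 1 library and bars the mean and SD of 4. Cat and Nfe2l2 lie higher in all 4 homozygous libraries than in any other, Sod2 and Gpx1 lie highest in the 4 wild-type libraries, and the groups overlap for the other genes.

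Catalase mRNA rose, with the largest log2 fold change of the 9 genes in the fit of all 12 libraries, though not once the score was added or homozygous replicates 4 and 5 were left out. Cat (ENSMUSG00000027187.10, 13 exons, mm10 chromosome 2, 103453849 to 103485160, minus strand) measured 85.1, 92.3, 48.8 and 67.8 CPM in wild types (67 to 116 counts). Heterozygotes had 85.5, 69.2, 120 and 100 CPM. The homozygous libraries held 132, 138, 289 and 354 CPM (197 to 351 counts). Every homozygous library lay above every other library, the heterozygous and wild-type libraries overlapped, and homozygous replicates 4 and 5 were far above replicates 1 and 2. Group means were 73.5 ± 19.4, 93.8 ± 21.7 and 228 ± 111 CPM (SD, n = 4 each). Cat was 3.07-fold higher in homozygotes than in wild types, a log2 fold change of 1.62 (SE 0.263, adjusted p = 0.000155, edgeR). That is a higher log2 fold change than 99.7% of all genes tested. Without homozygous replicates 4 and 5 it was 0.90 (SE 0.188, adjusted p = 0.00142, edgeR), and with the composition score as a covariate 0.43 (SE 0.176, adjusted p = 0.166, edgeR), which ends the call.

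Nfe2l2, the gene of the regulator NRF2, lies on the same chromosome (mm10, 75675513 to 75704641, minus strand, ENSMUSG00000015839.6). Wild types had 47.7, 68.5, 32.8 and 42.3 CPM of it, and heterozygotes 52.1, 53.4, 56.4 and 57.8 CPM. The homozygous libraries held 95.9, 90.2, 138 and 111 CPM. No homozygous library overlapped either other group. Homozygous replicates 1 and 2, with composition scores of −0.03 and 0.02, were both above all 8 wild-type and heterozygous libraries, as they were for Cat. Group means were 47.8 ± 15.1, 54.9 ± 2.63 and 109 ± 21.5 CPM (SD, n = 4 each), with homozygotes 2.29-fold above wild types (log2 fold change 1.20, SE 0.187, adjusted p = 0.000105, edgeR). The difference was 0.99 without homozygous replicates 4 and 5 (adjusted p = 0.000546, edgeR) and 0.82 with the composition score (adjusted p = 0.0199, edgeR). Among the 9 genes tested, Nfe2l2 alone was called under each of these fits.

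Of the superoxide dismutases, the mitochondrial enzyme fell and the cytosolic enzyme was not called. Sod2 (chromosome 17, 13006846 to 13040063, plus strand) measured 79.9, 79.9, 76.5 and 65.3 CPM in wild types. Heterozygotes had 54.6, 60.5, 52.0 and 60.4 CPM, and homozygotes 37.5, 57.9, 59.3 and 47.4 CPM. The wild-type libraries lay above all others, and the mutant genotypes overlapped. Sod2 was 1.48-fold lower in homozygotes than in wild types (log2 fold change −0.56, SE 0.163, adjusted p = 0.0135, edgeR). The value was −0.62 without homozygous replicates 4 and 5 (adjusted p = 0.0242, edgeR) and −0.61 with the composition score, where the adjusted p was 0.102 in edgeR. Sod1 (chromosome 16, 90220754 to 90226329, plus strand), the copper and zinc enzyme, had means of 154 ± 20.6, 154 ± 26.3 and 155 ± 28.4 CPM (SD, n = 4 each) in wild types, heterozygotes and homozygotes. Its 12 libraries spanned 123 to 193 CPM and the groups overlapped fully (log2 fold change 0.03, SE 0.151, adjusted p = 0.891, edgeR). Scaf4 overlaps Sod1 on the opposite strand, and the strand of the counts is not given.

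Among the glutathione peroxidases, which are selenoenzymes, Gpx1 fell and Gpx4 had too few counts to compare. Gpx1 (chromosome 9, 108338903 to 108340343, plus strand) encodes the cytosolic and mitochondrial enzyme. Wild types had 38.9, 38.1, 38.6 and 39.2 CPM. Heterozygotes had 32.8, 36.3, 33.0 and 30.8 CPM, and homozygotes 23.5, 31.4, 23.1 and 24.8 CPM. All wild-type libraries were above all others, and the mutant genotypes overlapped through homozygous replicate 2 alone. The wild-type libraries agreed closely, at 38.7 ± 0.468 CPM (SD, n = 4), although they held only 40 to 63 counts each. Homozygotes had 1.48-fold less Gpx1 than wild types (log2 fold change −0.57, SE 0.178, adjusted p = 0.0221, edgeR). It was not called without homozygous replicates 4 and 5 (−0.47, adjusted p = 0.149, edgeR), with the composition score (−0.39, adjusted p = 0.402, edgeR), or without wild-type replicate 3, homozygous replicate 1 or homozygous replicate 4 alone (adjusted p up to 0.0678, edgeR). Gpx4 (chromosome 10, 80047166 to 80056439, plus strand), which reduces lipid peroxides in membranes, has a named pseudogene, Gpx4-ps2, that could share its reads.

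None of the 3 peroxiredoxins was called. Prdx3, the mitochondrial peroxiredoxin (chromosome 19, 60864051 to 60874556), had means of 29.5 ± 4.26 CPM in wild types, 21.8 ± 5.93 in heterozygotes and 21.3 ± 5.88 in homozygotes (SD, n = 4 each). Its groups overlapped, and the log2 fold change was −0.49 (SE 0.235, adjusted p = 0.127, edgeR). Prdx1, a cytosolic peroxiredoxin (chromosome 4, 116685544 to 116700822), was at 19.2 ± 4.60, 20.4 ± 4.91 and 14.8 ± 2.12 CPM (SD, n = 4 each), from 11 to 42 counts a library (log2 fold change −0.37, SE 0.253, adjusted p = 0.295, edgeR). Prdx6, which also acts on phospholipids (chromosome 1, 161240112 to 161251219), was at 94.6 ± 7.41, 96.1 ± 10.6 and 103 ± 15.6 CPM (SD, n = 4 each). It had a log2 fold change of 0.11 (SE 0.142, adjusted p = 0.616, edgeR), and a named pseudogene, Prdx6-ps2, could share its reads. Txnrd1, the cytosolic selenoenzyme that recharges thioredoxin (chromosome 10, 82833951 to 82897712), was at 35.8 ± 4.33, 33.1 ± 3.87 and 27.3 ± 7.58 CPM (SD, n = 4 each). Its lowest library was homozygous replicate 5, at 16.9 CPM, and its groups overlapped (log2 fold change −0.36, SE 0.202, adjusted p = 0.197, edgeR). Eid3 overlaps Txnrd1 on the same strand.

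**Figure D2:**
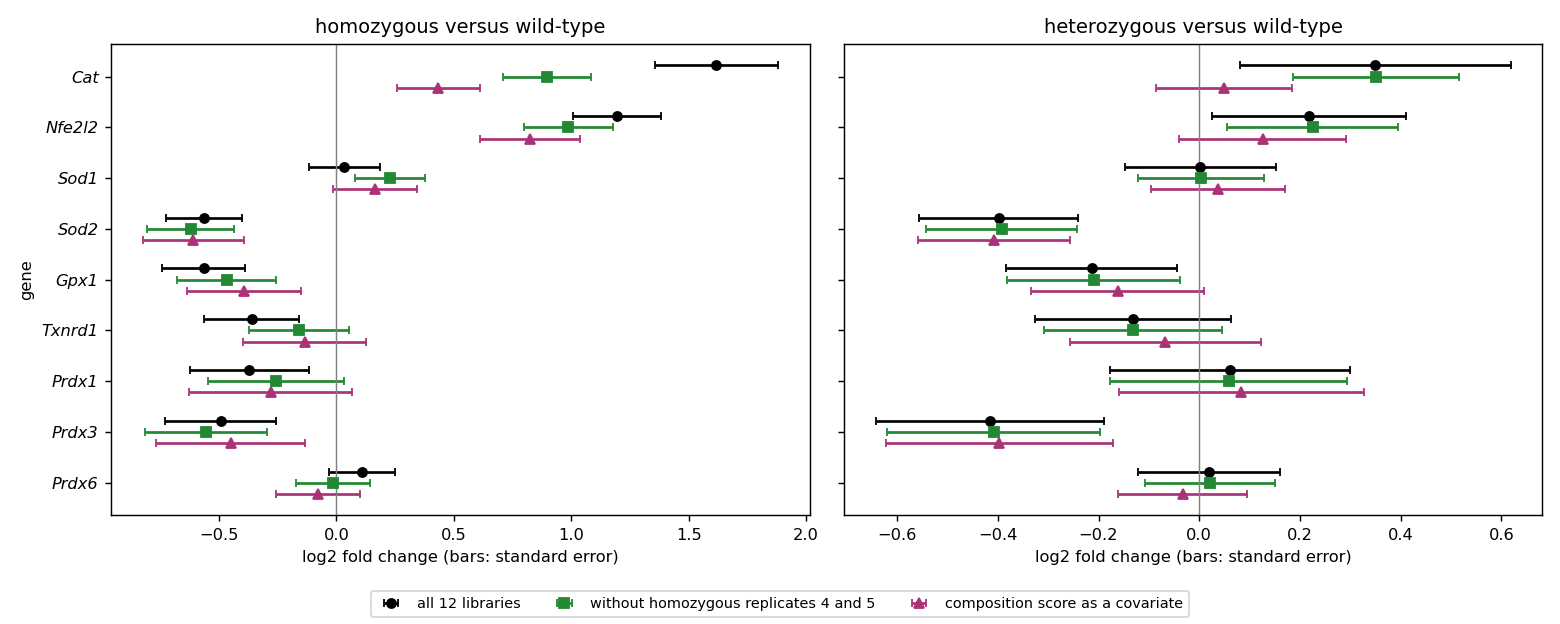
Log2 fold change (x axis) with its standard error for 9 genes, homozygous (left) and heterozygous (right) against wild-type mice, in the fit of all 12 libraries, without homozygous replicates 4 and 5, and with the composition score as a covariate. On the left Cat moves from 1.62 to 0.90 and 0.43, whereas Sod2 stays at −0.56, −0.62 and −0.61; the right panel has a shorter axis.

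The heterozygous comparison asks what 1 mutant copy goes with. None of the 9 genes was called between heterozygous and wild-type mice, where 0.596% of all genes were called. DESeq2 and limma-voom also called none. Of the 9 genes Sod2 had the smallest p, with a log2 fold change of −0.40 (SE 0.158, unadjusted p = 0.0190, adjusted p = 0.253, edgeR). By p it was only at rank 806 of the 10737 genes tested. Sod2 was lower in all 4 heterozygous libraries than in any wild-type library, as was Gpx1 (−0.21, SE 0.170, adjusted p = 0.606, edgeR). How many of all genes tested have such groups was not counted here either, so this only describes these libraries. Cat had a log2 fold change of 0.35 (SE 0.269, adjusted p = 0.595, edgeR) and Nfe2l2 of 0.22 (SE 0.192, adjusted p = 0.653, edgeR), and both overlapped with the wild-type libraries. This comparison and the first share the wild-type libraries.

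Between homozygous and heterozygous mice, 2 of the 9 genes were called, Cat and Nfe2l2, both higher with the second mutant copy, beside 2.20% of all genes. Cat was 2.41-fold higher (log2 fold change 1.27, SE 0.254, adjusted p = 0.0154, edgeR) and Nfe2l2 1.97-fold higher (0.98, SE 0.180, adjusted p = 0.00964, edgeR). Without homozygous replicates 4 and 5 neither was called, at 0.55 for Cat (adjusted p = 0.349, edgeR) and 0.76 for Nfe2l2 (adjusted p = 0.138, edgeR). With the composition score they were at 0.38 (adjusted p = 0.599, edgeR) and 0.70 (adjusted p = 0.253, edgeR). Cat also lost its call without heterozygous replicate 1 or 2 or either of these homozygous libraries alone, and Nfe2l2 without heterozygous replicate 2. Sod2 (−0.17, adjusted p = 0.601, edgeR) and Gpx1 (−0.35, adjusted p = 0.264, edgeR) were not called in this comparison.

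A slope over 0, 1 and 2 mutant copies called the same 4 genes as the first comparison, 2 rising and 2 falling, beside 25.7% of all genes (13.9% rising and 11.8% falling). With groups of equal size, such a slope rests mainly on the homozygous and wild-type libraries of the first comparison. The shared calls are therefore no separate result. Per mutant copy, Cat rose by 0.83 on the log2 scale (SE 0.135, adjusted p = 0.000125, edgeR) and Nfe2l2 by 0.62 (SE 0.0994, adjusted p = 0.000115, edgeR). Sod2 and Gpx1 both had a slope of −0.28 (SE 0.0802 and 0.0873). Their adjusted p were 0.0112 and 0.0200 in edgeR. The slope takes the steps between genotypes as equal. From wild-type to heterozygous and from heterozygous to homozygous mice, Cat differed by 0.35 and 1.27, and Nfe2l2 by 0.22 and 0.98. Sod2 differed by −0.40 and −0.17, and Gpx1 by −0.21 and −0.35. Without homozygous replicates 4 and 5 the slope of Cat was 0.44 (adjusted p = 0.00125, edgeR), Nfe2l2 and Sod2 were still called, and Gpx1 was not (adjusted p = 0.125, edgeR). With the composition score the slope of Cat was 0.20 (adjusted p = 0.188, edgeR) and only Nfe2l2 was called, at 0.39 (adjusted p = 0.0319, edgeR), with Sod2 at an adjusted p of 0.0635 and Gpx1 at 0.375 in edgeR.

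Levels between genes can be compared only per length, so CPM were divided by the length of the longest coding transcript in kilobases. The order of genes depends on that choice of transcript. On that scale Sod1 was the most abundant of the set in wild-type mice, at 240 ± 32.2 CPM per kilobase (SD, n = 4). Prdx6 (39.6 ± 3.10) and Gpx1 (36.1 ± 0.437) followed, about an SD of Prdx6 apart. Cat (28.1 ± 7.42), Prdx3 (20.0 ± 2.88) and Nfe2l2 (19.3 ± 6.10) did not differ beyond their spread, nor did Txnrd1 (9.89 ± 1.20) and Prdx1 (8.38 ± 2.00), with Sod2 above both at 12.9 ± 1.19. Gpx4 had the lowest value, 0.552 ± 0.705 CPM per kilobase, from 0 to 3 counts per library. Whether its reads were lost in mapping or counting, as to its named pseudogene, was not tested. In homozygous mice the means of Cat (87.4 ± 42.5) and Nfe2l2 (44.0 ± 8.70 CPM per kilobase) were above all others of the set but Sod1 at 242. Cat, Nfe2l2 and Prdx6 (43.1 ± 6.55) did not differ beyond their spread. Cat was at 132 and 138 CPM in homozygous replicates 1 and 2, and at 289 and 354 CPM in replicates 4 and 5. Gpx1 was at 24.0 and Sod2 at 8.63 CPM per kilobase.

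Across all genes, the homozygous difference went with transcript GC content, which was read beside the members. Genes were split by GC into 5 bins of equal size. The bin with the least GC (31.0 to 43.9%) had a median log2 fold change of 0.28, and the bin with the most (55.3 to 71.1%) a median of −0.42. Sod2, with 42.2% GC, lay in the bin whose median was 0.28, and where 1.98% of genes were called lower, yet its own value was −0.56. Cat, with 48.7% GC, lay in the middle bin, whose median was −0.02 where 11.0% of genes were called higher. Nfe2l2, with 46.8% GC, lay in a bin with a median of 0.15. Gpx1, with 57.2% GC, lay in the bin with a median of −0.42 and 26.5% of genes called lower, near its own value of −0.57.

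**Figure D3:**
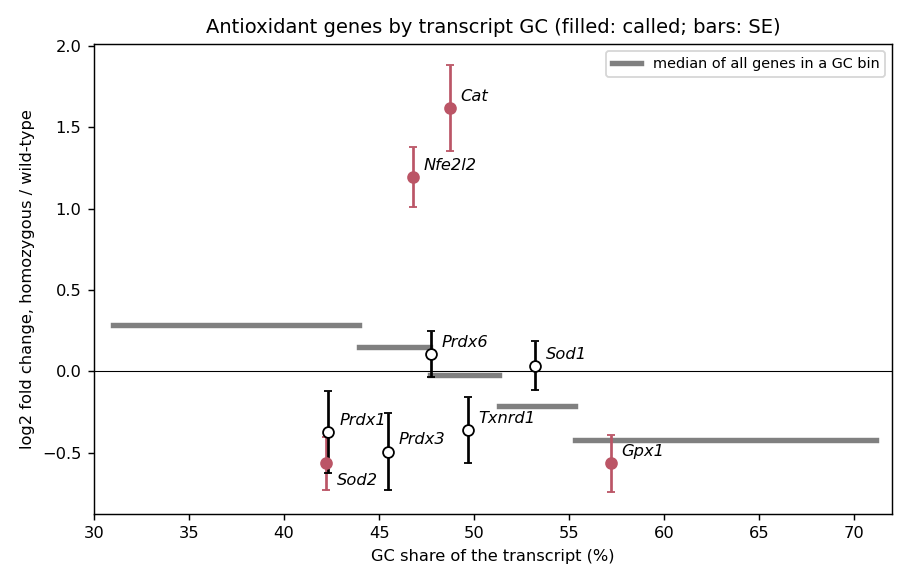
Log2 fold change of homozygotes against wild types (y axis) of 9 antioxidant genes by the GC share of the transcript (x axis, percent), filled where called, with standard errors; grey bars are medians of all genes in 5 bins of GC. Cat and Nfe2l2 lie far above the medians of their bins, Sod2 below that of its bin, and Gpx1 close to that of its own.

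Within the homozygous group, the libraries with the lowest composition scores had the most Cat. Cat was at 132 and 138 CPM in the homozygous libraries scored −0.03 and 0.02, and at 289 and 354 CPM in those scored −0.48 and −0.52. Nfe2l2 was at 95.9 and 90.2 CPM in the former and at 138 and 111 CPM in the latter. Sod2 was at 37.5 and 57.9 CPM and then at 59.3 and 47.4 CPM, with no such split. Heterozygous replicates 1 and 3, with scores of −0.01 and −0.01, held 85.5 and 120 CPM of Cat, below both homozygous libraries of like score. These values describe single libraries and were not tested.

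**Figure D4:**
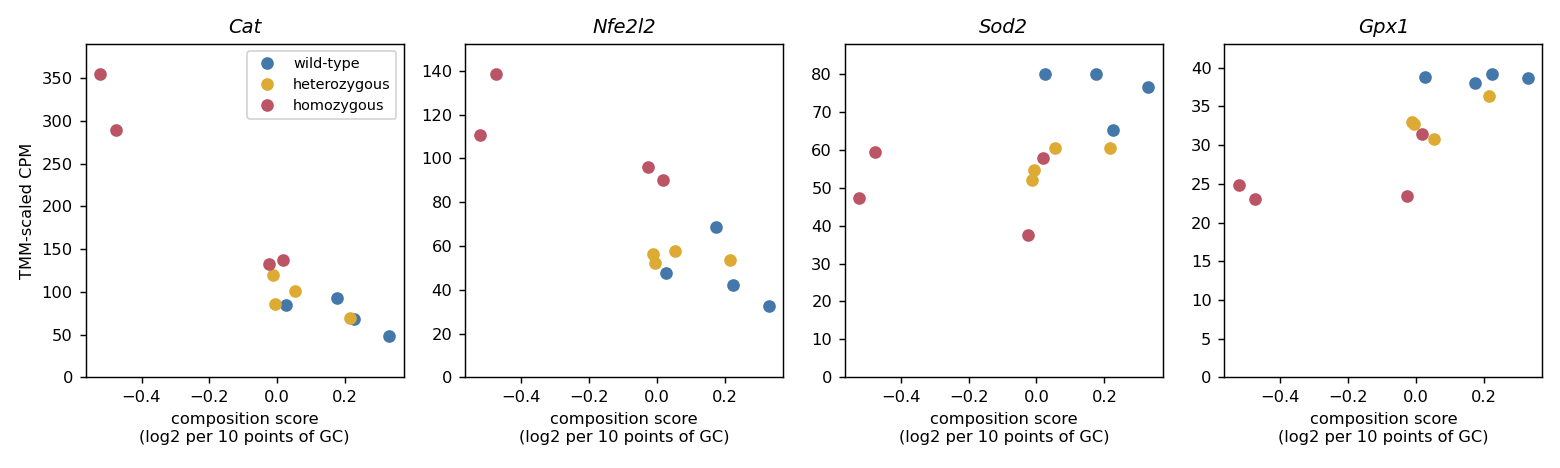
TMM-scaled CPM (y axis, from 0) of Cat, Nfe2l2, Sod2 and Gpx1 against the composition score of each library (x axis, log2 per 10 points of GC), with points coloured by genotype. Homozygous replicates 4 and 5, at −0.48 and −0.52, hold the 2 highest Cat values, and the Sod2 values of the mutant libraries do not split by score.

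The 5 genes whose log2 CPM followed Cat most closely over the 12 libraries, of 10035 genes with a mean of at least 5 CPM, were Senp6, Dclk1, Gcc2, Scn3a and Apc. Their Pearson r with Cat was 0.989 (Senp6), 0.981 (Dclk1) and 0.979 (Gcc2, Scn3a and Apc), as a description over libraries that share genotype and composition. Senp6 removes SUMO, Dclk1 encodes a kinase that binds microtubules, Gcc2 a Golgi protein, Scn3a a sodium channel subunit and Apc a scaffold of Wnt signalling. Since they were chosen for following Cat, their rise in homozygotes, with log2 fold changes of 0.65 (Scn3a) to 1.02 (Gcc2), is only a description. With the composition score these were 0.10 (Scn3a) to 0.28 (Apc), and none was called. Within the set, Nfe2l2 was most like Cat (r = 0.917), and Gpx1 the most opposed (r = −0.846). Sod1 was near 0 (r = −0.05).

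The rest of the antioxidant system was read from 11 lists of other genes. Of their 147 genes in the table, 117 were tested between homozygous and wild-type mice, and 11 were higher and 16 lower (23.1%), beside 25.4% of all genes. Their median log2 fold change was −0.08. Without homozygous replicates 4 and 5, 5 were higher and 7 lower of 120 tested, beside 11.9% of all genes called. With the composition score 1 was higher and 5 were lower of 117, beside 4.40% of all genes. The counts of single lists below are small and stand beside the same 13.7% higher and 11.6% lower over all genes. A single gene, Sqstm1, was called between heterozygous and wild-type mice.

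Among the regulators and partners of NRF2, 1 of 11 tested genes was higher and 3 were lower. Sqstm1 encodes p62, an autophagy adaptor that binds KEAP1. It fell from 208 ± 18.9 CPM in wild types to 131 ± 22.1 in heterozygotes and 112 ± 22.3 in homozygotes (SD, n = 4 each). Its log2 fold change was −0.66 in heterozygous (SE 0.148, adjusted p = 0.0404, edgeR) and −0.87 in homozygous mice (SE 0.152, adjusted p = 0.000300, edgeR). The heterozygous call was lost when wild-type replicate 1, 2 or 3 was left out, and likewise for heterozygous replicate 1, 3 or 4. Btrc, a subunit of another ubiquitin ligase that targets NRF2, fell by 0.59 on the log2 scale (adjusted p = 0.00252, edgeR). Cul3, the scaffold of the KEAP1 ligase, was higher by 0.70 (adjusted p = 0.0102, edgeR) but at −0.14 and not called with the composition score. Keap1 itself, chosen for mention after its values were seen, was lower (−0.58).

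The enzymes that NRF2 is known to induce were read next. In the list of its target enzymes outside glutathione metabolism, none of 10 tested genes was higher and 1 was lower, the epoxide hydrolase Ephx1 (−0.92, adjusted p = 0.0243, edgeR). In the glutathione list, 1 of 17 was higher and 3 were lower (23.5% called, near the 25.4% of all genes). These were Ggt7, related to the enzyme that cleaves glutathione (−1.51, adjusted p = 0.000963, edgeR), the transferase Gstp1 (−0.97, adjusted p = 0.0244, edgeR) and Gclm, the modifier subunit of the enzyme that starts glutathione synthesis. Gclm had means of 37.8 ± 8.84 CPM in wild types, 23.0 ± 2.59 in heterozygotes and 23.8 ± 5.48 in homozygotes (SD, n = 4 each), a log2 fold change of −0.69 in homozygotes (adjusted p = 0.0214, edgeR). The higher gene was Gstz1 (0.42), named after its values were seen. The classical targets Nqo1 and Hmox1, also named after their values were seen, were too low to be tested, at 3.82 and 3.88 CPM in wild-type mice.

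Of 5 further peroxidases tested, 2 were lower and none higher. Prdx2, an abundant neuronal peroxiredoxin, was at −0.95 (adjusted p = 0.00959, edgeR) and the secreted peroxidase Gpx3 at −0.40 (adjusted p = 0.0308, edgeR), and neither was called once the score was added or homozygous replicates 4 and 5 were left out. In the thioredoxin and glutaredoxin list, 2 of 15 were higher, the mitochondrial glutaredoxin Glrx2 (0.69, adjusted p = 0.00279, edgeR) and Txnl1 (0.86, adjusted p = 0.00807, edgeR). The same list had 2 lower genes, the mitochondrial thioredoxin Txn2 (−0.85, adjusted p = 0.00514, edgeR) and Sesn2 (−0.92), the latter named after its values were seen. Txnl1 was at −0.13 with the composition score. None of 3 tested genes for superoxide and copper handling was called in the fit of all libraries, but the metallothionein Mt2, named after its values were seen, was called higher without homozygous replicates 4 and 5 and with the composition score.

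Catalase works in the peroxisome, and of 23 other peroxisomal genes tested, 3 were higher and none lower (13.0%, beside 25.4% of all genes). Among these were Agps, which forms the ether bond of ether lipids (0.62, adjusted p = 0.0166, edgeR), and the import factor Pex13 (0.72, adjusted p = 0.0191, edgeR). Agps was at −0.05 with the composition score. Pex5, the receptor that brings catalase into the peroxisome, was at −0.08 and not called. Among selenoproteins and selenium handling, 1 of 15 was higher and 3 were lower. Sepw1 was at −1.01 (adjusted p = 0.00544, edgeR) and Ept1 at −0.68 (adjusted p = 0.00151, edgeR), both selenoproteins like GPX1. Pstk, which helps make the selenocysteine transfer RNA, was higher (0.86, adjusted p = 0.00687, edgeR), and Sepn1, named after its values were seen, was lower (−0.62).

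FOXO and PGC-1 factors act on Cat and Sod2, and their list also holds sirtuins and other regulators of mitochondrial genes. Of its 8 tested genes, 1 was higher and 2 were lower, and the lower genes, Nrf1 and Sirt3, belong to neither family. Ppargc1a, the gene of PGC-1 alpha, had means of 174 ± 39.5 CPM in wild types, 223 ± 25.3 in heterozygotes and 299 ± 36.2 in homozygotes (SD, n = 4 each). It rose by 0.77 on the log2 scale in homozygotes (SE 0.148, adjusted p = 0.000675, edgeR), and was at 0.39 and not called with the composition score (adjusted p = 0.138, edgeR). Nrf1, a regulator of mitochondrial genes, was at −0.98 (adjusted p = 0.0220, edgeR) and the mitochondrial deacetylase Sirt3, which acts on SOD2, at −0.77 (adjusted p = 0.0400, edgeR). Of the 7 tested genes for methionine sulfoxide and protein repair, Pcmt1 (0.40, adjusted p = 0.0445, edgeR) and Msrb3 (1.02, adjusted p = 0.0495, edgeR) were higher, and of 3 tested oxidant producers none was called. Without homozygous replicates 4 and 5, calls remained, among the list genes named here, for Sqstm1, Btrc, Ggt7, Gclm, Gstz1, Glrx2, Txn2, Ept1 and Ppargc1a. With the composition score they remained for Sqstm1, Gclm and Ept1 alone, and Sepw1 was at −0.25 and Gstp1 at −0.20. When single libraries were left out in turn, Sqstm1, Btrc, Ggt7, Glrx2, Txn2, Txnl1, Sepw1, Ept1, Pstk and Ppargc1a were called in all 12 fits. Cul3 lost its call without homozygous replicate 5, Prdx2 without wild-type replicate 3, and Gclm without wild-type replicate 2 or homozygous replicate 1 or 2. The calls of Pex13, Agps, Ephx1, Gstp1, Gpx3, Nrf1, Sirt3, Pcmt1 and Msrb3 were each lost in 3 to 8 of these 12 fits.

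**Figure D5:**
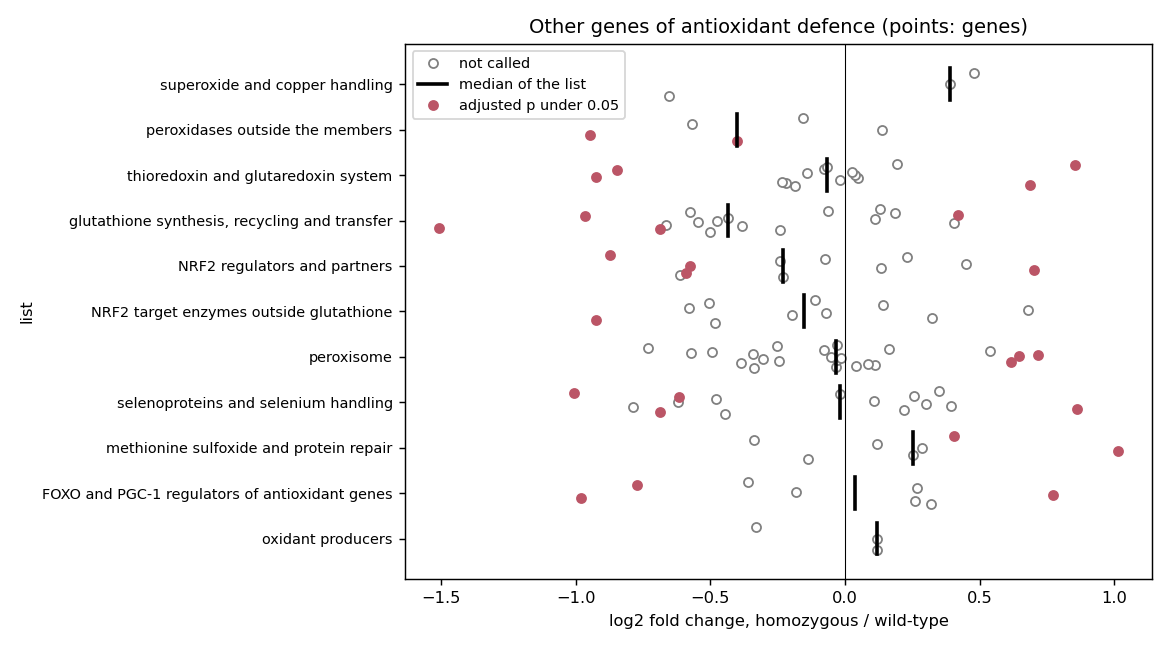
Log2 fold change of homozygotes against wild types (x axis) of the 117 tested genes of 11 other antioxidant lists (rows), each point 1 gene, filled where the adjusted p was under 0.05, with a bar at the median of each list. Called genes lie on both sides of 0, 11 higher and 16 lower.

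Summed levels of cell type markers were read beside these results. The summed level of 7 neuron markers was 4282 to 5532 CPM in wild-type, 5278 to 6152 in heterozygous and 5847 to 8081 in homozygous libraries, and 4 of the 7 were called higher in homozygous mice. Snap25 alone went from a mean of 2873 to 4372 CPM between wild-type and homozygous mice, while Rbfox3 (−0.11), Syt1 (−0.13) and Tubb3 (−0.31) had negative log2 fold changes and were not called. The 8 endothelium and pericyte markers summed to 175 to 208 CPM in wild-type and 138 to 167 CPM in homozygous libraries. Vtn (means of 27.8 and 10.1 CPM) and Pdgfrb (17.2 and 6.69 CPM) were called lower, and no other gene of this list was called. Of the 7 tested, 2 had positive log2 fold changes, Slco1c1 (0.35) and Rgs5 (0.18). The 8 ependyma and tanycyte markers summed to 78.0 to 98.2 CPM in wild-type and 99.2 to 167 CPM in homozygous libraries. Dio2 made most of that difference, with a mean of 22.1 CPM in wild-type and 70.8 CPM in homozygous mice, whereas Foxj1 had 5.84 and 2.32 CPM. Genes of all these marker lists named here were chosen after their values were seen. Wild-type and homozygous libraries did not overlap for any of these 3 sums. They overlapped for the sums of astrocyte (4390 to 5561 and 5273 to 6774 CPM), oligodendrocyte (3145 to 3955 and 2033 to 3333), microglia (164 to 195 and 149 to 179), choroid plexus (35.2 to 46.0 and 35.5 to 53.1) and erythrocyte markers (89.4 to 108 and 85.8 to 133). The sums of the 14 hypothalamic neuron markers overlapped too (982 to 1392 and 1040 to 1410 CPM), with Pmch making most of them. Of 12 tested, Trh (−1.08) and Pomc (−1.12) were called lower and Six3 (0.64) higher. Only Trh kept its call without homozygous replicates 4 and 5, and likewise with the composition score. Within the erythrocyte sum the genes moved in opposite directions. Bpgm made most of it and was called higher, with means of 69.8 CPM in wild-type and 97.9 CPM in homozygous mice. Beta-s went from 16.7 to 7.11 CPM and was called lower (−1.03, adjusted p = 0.0433, edgeR). Neither call held after homozygous replicates 4 and 5 were dropped, nor after the score entered the fit. How much blood each sample held was not tested. None of the markers in the table was at 0 throughout, and the part of cell composition in the changes of Cat, Nfe2l2, Sod2 and Gpx1 was not tested.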

How the data were processed

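Hypothalamus RNA of 12 mice was read on a SOLiD 5500xl sequencer after NuGEN Ovation amplification, per the labels' protocols. Raw counts by gene symbol are what the deposited table gives. The genome build was mm10 per the submitters' processing notes, with aligner, counter, annotation and strand not given in the sources used here. GENCODE M21, matched by symbol, gave coordinates, transcript length and GC content (symbols found: 20717 directly, 1867 by an older symbol, 1436 not at all), and promoter windows come from RefSeq.

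All 12 libraries entered 1 edgeR 4.0.16 fit (R 4.3.3): TMM factors (0.908 to 1.08), the default low-count filter and quasi-likelihood F tests on genotype. Adjusted p are Benjamini-Hochberg over all 10737 genes tested, called under 0.05, and fold changes without another source are from this fit. The test was checked on simulated counts. Alternatives used DESeq2 1.42.0 and limma 3.58.1 (voom), other scaling, no filter, only the genotypes compared, a replicate block, the composition score, Rn45s left out, and libraries left out. Within genotypes, each pair of libraries differed beyond counting noise, so none was counted as a duplicate. The genes, lists and rules were chosen with earlier results of these data known. By the naming rule, all members, Wfs1, up to 3 called genes per list by smallest p and the 5 genes most correlated with Cat are named; 1 list gene that the rule covers is left out.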

Additional observations from a re-analysis of the deposited data

Results flagged for a closer look

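In 54 groups of 4 libraries, 3 held a library far from the rest by Dixon's criterion, and chance flags about 1 in 20 groups. The groups were each member, Wfs1, the 5 genes most correlated with Cat, Rn45s and the composition score, in each genotype. Prdx1 was at 26.1 CPM in wild-type replicate 5, above the 16.8 to 17.1 CPM of the other wild-type libraries. Txnrd1 was at 38.8 CPM in heterozygous replicate 3, above the 30.8 to 31.7 CPM of the other heterozygous libraries. Rn45s was at 788 CPM in heterozygous replicate 2, against 352 to 379 CPM in the other heterozygous libraries.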

How the results depend on the processing

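Between homozygous and wild-type mice, 3 to 4 of the 9 genes were called under the alternatives run, except 1 (Nfe2l2) with the composition score, which also left 1 gene in the slope. Between homozygous and heterozygous mice the 2 calls became 1 with the replicate block (Cat 0.90, adjusted p = 0.0808, edgeR). The fit with the block also left out homozygous replicate 5, and Cat lost this call without that library alone too. The 2 calls became 0 without homozygous replicates 4 and 5, 0 with the composition score, and 0 to 2 when single libraries were left out. Over all genes, 2723 calls between homozygous and wild-type mice became 1322 with the block, 1344 without homozygous replicates 4 and 5 and 472 with the composition score. Leaving out homozygous replicate 5 alone gave 2113 calls. Between the mutant genotypes it gave 32 calls, as did the fit with the block. The 64 heterozygous calls ranged from 3 to 430, the 236 calls between the mutant genotypes from 1 to 867, and the 2757 slope calls from 576 to 2942. The block was not used for the results, since libraries of one number did not vary together (r −0.265 to 0.337) and homozygous replicate 5 has no label with its number. Under it Gpx1 was at −0.52 (adjusted p = 0.169, edgeR). Without the count filter Gpx1 was at −0.54 (adjusted p = 0.0779, edgeR).

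With single libraries left out, log2 fold changes between homozygous and wild-type mice ranged from 1.34 to 1.81 for Cat, 1.06 to 1.41 for Nfe2l2, −0.65 to −0.44 for Sod2 (each called every time) and −0.70 to −0.51 for Gpx1. Some genes that were not called changed sign. Sod1 ranged from −0.0606 to 0.125 (homozygous against wild-type), −0.118 to 0.0747 (heterozygous against wild-type) and −0.0638 to 0.154 (homozygous against heterozygous). Prdx6 ranged from −0.0447 to 0.0819 and from −0.0107 to 0.178 in the last 2 of these pairs, Prdx1 from −0.0469 to 0.267 in heterozygous mice, and Prdx3 from −0.219 to 0.0531 between the mutant genotypes. Prdx6 was at −0.0148 (homozygous against wild-type) and −0.0366 (against heterozygous) without homozygous replicates 4 and 5. With the composition score Prdx6 was at −0.0782, −0.0332 (heterozygous against wild-type) and −0.0450, Cul3 at −0.136, Agps at −0.0472 and Txnl1 at −0.132. The cause of these changes was not tested. Counts were few for Gpx4, at most 3 a library, and for Prdx1, Prdx3, Gpx1 and Txnrd1, with fewer than 100 counts in every library.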
